A study of Homo sapiens with 4 samples.

Results

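The 10 genes described here, *EGR1*, *JUN*, *JUNB*, *JUND*, *FOSL1*, *FOSL2*, *ATF3*, *IER2*, *IER3* and *DUSP1*, are growth-factor-induced early genes. They were chosen by name and function from the 63677 genes of the count files, with earlier results of the same comparison known, so that the fold changes and calls below describe them and are not a test of them. All 10 had reads in every library and passed the low-count filter that left 17143 genes. RNA of FLO-1LM cells was compared with RNA of FLO-1 parental cells, in 2 RNAseq libraries each. FLO-1 cells are an established line from a human esophageal adenocarcinoma, and FLO-1LM is a subline grown out of a FLO-1 liver deposit after such deposits had been passed repeatedly through immunodeficient NSG mice. No treatment was given, both lines were kept in DMEM with fetal bovine serum, and RNA was taken the day after the medium was renewed. FLO-1LM stands for a single derivation, and the labels and methods do not say that replicate libraries were made from separate cultures, so the p-values measure only the spread between these libraries, which may be technical.

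Immediate early genes are transcribed within minutes of a growth factor signal, without new protein synthesis. The signal runs through RAS and the ERK MAP kinases to ternary complex factors and SRF, which bind CArG boxes in the promoters of genes such as *EGR1*, and through CREB and ATF proteins at cyclic AMP response elements (CRE). AP-1 is a dimer of JUN proteins with each other or with FOS, FOSL and ATF proteins, and it is known in carcinomas for driving genes of invasion and proliferation. EGR1 is a zinc finger transcription factor held in check by its cofactors NAB1 and NAB2, and DUSP1 is a phosphatase that switches MAP kinases off.

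Total counts per library ran from 19060310 to 25920336. Mitochondrial genes took 9.57% to 9.96% of the counts in FLO-1LM and 7.93% to 8.31% in parental cells, and 21152 to 21304 genes had a count in FLO-1LM against 22908 to 23104 in parental cells. The epithelial markers *KRT8*, *KRT18*, *KRT19* and *CDH1* were detected in every library and all 4 fell in FLO-1LM, whereas *EPCAM* had at most 12 counts, and the summed level of these 5 markers was 495.5 and 481.8 CPM in FLO-1LM and 845.0 and 857.6 CPM in parental cells. Leukocyte markers reached at most 2 counts, and the endothelial markers *VWF* and *CDH5* at most 6. The endothelial marker *PECAM1* had no matching gene identifier. The hepatocyte genes *ALB* and *TTR* and the fibroblast gene *DCN* had 0 counts in every library. Of the remaining markers *COL1A1* and *SERPINA1* had over 100 counts in each library. The part of these differences in the results below was not tested.

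The promoters of *EGR1*, *JUN* and *DUSP1* are shown as examples. *EGR1* holds CArG boxes and *DUSP1* a CRE, the elements named above, while *JUN* holds only the looser letters TGANNTCA. *JUND*, which also holds a CRE, is not shown. RefSeq windows span 250 bases before to 50 bases after the transcription start on GRCh38.p14. The windows lie at chr5:138465229-138465528 (forward strand), chr1:58783998-58784297 (reverse strand) and chr5:172771146-172771445 (reverse strand). Capitals mark the CArG boxes and the GCGNGGGCG EGR site in *EGR1*, the TGANNTCA site in *JUN*, and the TGACGTCA CRE and the TATAAA box in *DUSP1*.
EGR1: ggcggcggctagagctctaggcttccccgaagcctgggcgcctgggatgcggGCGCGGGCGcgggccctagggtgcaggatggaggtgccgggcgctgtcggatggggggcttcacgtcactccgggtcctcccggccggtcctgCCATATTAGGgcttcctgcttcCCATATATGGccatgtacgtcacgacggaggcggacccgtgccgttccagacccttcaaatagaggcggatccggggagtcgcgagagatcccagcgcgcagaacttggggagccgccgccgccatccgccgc
JUN: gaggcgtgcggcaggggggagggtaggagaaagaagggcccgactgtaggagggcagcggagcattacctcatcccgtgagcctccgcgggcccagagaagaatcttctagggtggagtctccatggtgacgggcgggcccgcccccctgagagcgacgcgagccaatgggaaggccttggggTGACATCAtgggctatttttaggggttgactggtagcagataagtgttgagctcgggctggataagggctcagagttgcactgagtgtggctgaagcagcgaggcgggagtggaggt
DUSP1: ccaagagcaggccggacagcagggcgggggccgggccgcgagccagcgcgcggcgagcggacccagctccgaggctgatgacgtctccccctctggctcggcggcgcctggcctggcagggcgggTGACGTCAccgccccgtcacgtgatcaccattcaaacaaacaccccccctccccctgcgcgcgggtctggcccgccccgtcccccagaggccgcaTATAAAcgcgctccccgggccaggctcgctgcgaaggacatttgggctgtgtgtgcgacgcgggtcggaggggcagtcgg

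Windows were found for 8 of the 10 genes, and none for *FOSL1* and *IER3*. *ATF3* has 2 windows, and the letters were searched on both strands. *EGR1* held 2 CArG boxes, at -105 to -96 and -83 to -74 from the start, and was the only 1 of the 8 with this motif, which 1.29% of 35116 promoter windows hold. A CRE was present in *JUND* and *DUSP1*, against 1.85% of all windows. The looser TGANNTCA, which every CRE also matches, was present in *JUN*, *JUND*, *ATF3* and *DUSP1*, against 11.5% of all windows. The 7-letter AP-1 site TGANTCA was present in *FOSL2* alone, at 5 to 11 bases after the start, against 7.71% of all windows. The EGR site was found in *EGR1* alone (9.43% of all windows), TATAAA in *JUNB*, *ATF3* and *DUSP1* (11.5%), and the ETS core CCGGAA in *IER2* (17.2%). Among 30 other immediate early genes with a window, a CArG box was found in *EGR2* only. A match is a run of letters and not a measured binding site.

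*EGR1* (ENSG00000120738, chromosome 5 of GRCh37, 137801168 to 137804992, forward strand) was the member with the largest difference between the lines. Its level was 18.3 and 15.2 CPM in the FLO-1LM libraries and 25.9 and 25.3 CPM in the parental libraries, from 407, 390, 571 and 485 counts. CPM are counts scaled to a common library size with TMM factors. Both FLO-1LM libraries lay below both parental libraries, and the FLO-1LM pair was the wider of the pairs. The mean was 16.7 ± 2.2 CPM in FLO-1LM and 25.6 ± 0.43 CPM in parental cells (SD, n = 2 each). The fitted difference was -0.62 on the log2 scale, with a standard error of 0.14 and a 95% interval from -0.91 to -0.33, or 0.652 times the parental level. *EGR1* was the only member past an adjusted p of 0.05 in edgeR's quasi-likelihood test across all tested genes, in a table where 2.23% of genes passed, 1.83% lower and 0.402% higher in FLO-1LM. Without parental replicate 1 the log2 fold change was -0.60 and without parental replicate 2 it was -0.63, and in either fit *EGR1* no longer passed the threshold.

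**Figure D1:**
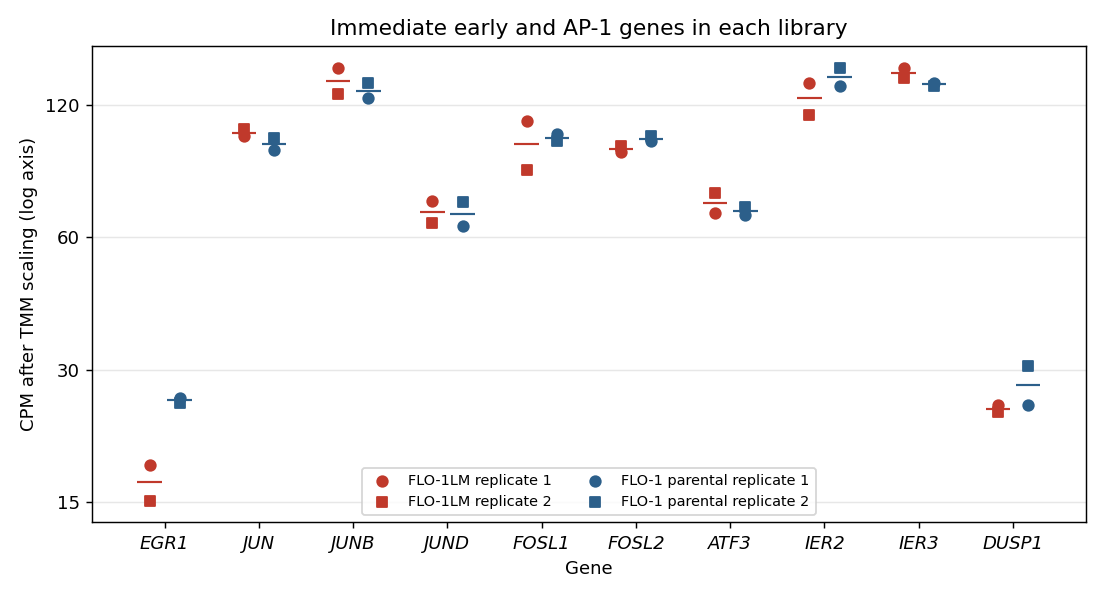
Level of each of the 10 genes in CPM after TMM scaling (log axis) in the 2 FLO-1LM libraries (red) and the 2 FLO-1 parental libraries (blue), with circles for replicate 1, squares for replicate 2 and bars for the line means. *EGR1* is the gene whose lines stand apart, with 18.3 and 15.2 CPM against 25.9 and 25.3 CPM, while the points of the other genes lie close together or overlap.

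Among the JUN subunits, which form the core of AP-1, the lines were close. *JUN*, the founding subunit, had 101.7 and 106.0 CPM in FLO-1LM and 94.8 and 101.1 CPM in parental cells. *JUNB*, a subunit that also restrains JUN, had 145.5 and 126.7 CPM in FLO-1LM and 124.1 and 134.2 CPM in parental cells. *JUND*, the subunit least dependent on growth factor stimulation, had 72.5 and 64.6 CPM in FLO-1LM and 63.8 and 72.2 CPM in parental cells. The FLO-1LM values of *JUN* lay above the parental values by a margin of 0.0090 on the log2 scale, and those of *JUNB* and *JUND* overlapped with the parental values. The log2 fold changes were 0.09 (95% interval -0.09 to 0.26) for *JUN*, 0.08 (-0.10 to 0.25) for *JUNB* and 0.01 (-0.19 to 0.21) for *JUND*. The sign for *JUND* was not fixed, since it was -0.02 with library totals in place of TMM factors and -0.07 without parental replicate 1 or without FLO-1LM replicate 1, and *JUNB* was at -0.03 without FLO-1LM replicate 1. *JUN* was at 0.04 without parental replicate 1 and at 0.13 without parental replicate 2.

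*FOSL1* and *FOSL2* encode FRA-1 and FRA-2, FOS-related partners of JUN that lack the strong activation domain of FOS. *FOSL1* had 110.1 and 85.3 CPM in FLO-1LM and 102.9 and 99.2 CPM in parental cells, so that both parental libraries lay between the FLO-1LM libraries. *FOSL2* had 93.6 and 96.9 CPM in FLO-1LM and 99.4 and 101.9 CPM in parental cells. The FLO-1LM values of *FOSL2* lay below the parental values by 0.04 on the log2 scale, with a log2 fold change of -0.08 (95% interval -0.25 to 0.09). For *FOSL1* the log2 fold change was -0.05 (95% interval -0.26 to 0.16), and it was 0.12 without FLO-1LM replicate 2. *ATF3*, a stress-induced bZIP protein that pairs with JUN proteins, had 68.0 and 75.9 CPM in FLO-1LM and 67.5 and 70.3 CPM in parental cells. The groups overlapped, and the log2 fold change was 0.06 (95% interval -0.13 to 0.25) and -0.02 without FLO-1LM replicate 2.

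Of the early response genes outside AP-1, *IER2*, a nuclear protein of the early response, had 134.5 and 113.7 CPM in FLO-1LM and 132.6 and 145.3 CPM in parental cells. The ranges overlapped, and the log2 fold change was -0.16 (95% interval -0.35 to 0.02). Without FLO-1LM replicate 1 it was -0.29 and *IER2* passed the threshold, and without FLO-1LM replicate 2 it was -0.05. *IER3*, a regulator of cell survival, had 145.8 and 137.9 CPM in FLO-1LM and 134.6 and 132.7 CPM in parental cells. Its FLO-1LM libraries were above the parental libraries by 0.04 on the log2 scale, with a log2 fold change of 0.09 (95% interval -0.08 to 0.25). *DUSP1* had 24.9 and 24.1 CPM in FLO-1LM and 25.0 and 30.6 CPM in parental cells. Parental replicate 1 of *DUSP1* thus lay beside the FLO-1LM libraries and replicate 2 above them, and the log2 fold change was -0.18 (95% interval -0.45 to 0.09). It was -0.32 without parental replicate 1 and -0.03 without parental replicate 2.

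**Figure D2:**
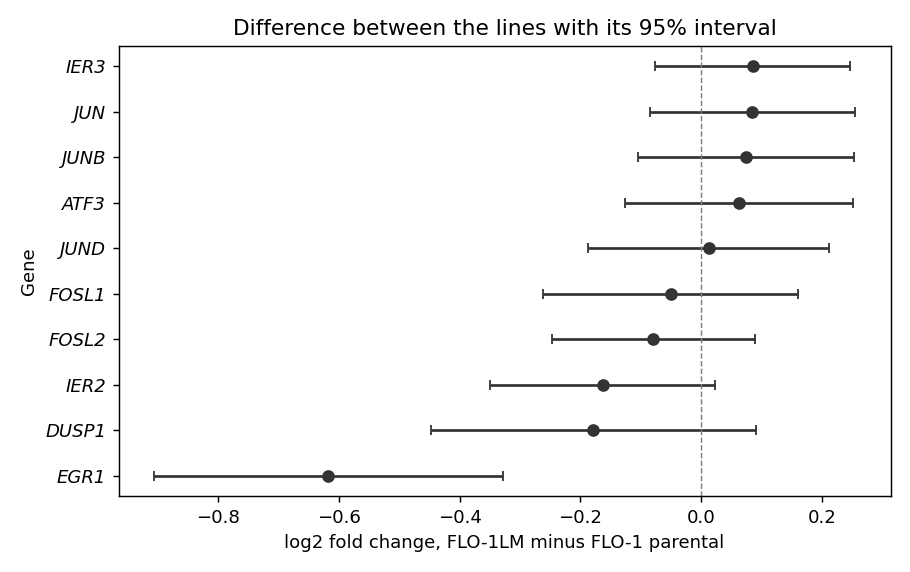
Fitted log2 fold change of each gene (FLO-1LM minus FLO-1 parental, horizontal axis) with its 95% interval from edgeR's quasi-likelihood fit, 2 libraries per line. The interval of *EGR1*, -0.91 to -0.33, lies wholly below 0, and those of the other 9 genes cross 0.

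Over the 10 genes, 5 log2 fold changes were negative and 5 positive, and the median was -0.02, beside 0.0020 over all 17143 tested genes. Apart from *EGR1*, all 9 lay within 0.2 of 0 on the log2 scale, as did 10909 of all tested genes, and the outermost bound of their intervals was -0.45, for *DUSP1*. The FLO-1LM libraries were both below the parental libraries for 3 members (*EGR1*, *FOSL2* and *DUSP1*) and both above for 2 (*JUN* and *IER3*). Over all tested genes these shares were 21.7% and 20.9%, and nothing is read from the members' counts. The margin was 0.47 on the log2 scale for *EGR1* and at most 0.04 for the other 4.

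For 7 of the 10 genes a difference between libraries of the same line was larger than the difference between the lines. Between the FLO-1LM libraries the median absolute log2 difference of the 10 genes was 0.16, with a largest value of 0.37 for *FOSL1*, and it was 0.11 over the 6686 tested genes in the same range of levels. Between the parental libraries it was 0.08, with a largest value of 0.29 for *DUSP1*, and 0.08 over the 6686 genes. In FLO-1LM replicate 2, *EGR1*, *JUNB*, *JUND*, *FOSL1*, *IER2*, *IER3* and *DUSP1* were lower than in replicate 1, and *JUN*, *FOSL2* and *ATF3* were higher. The exceptions, where the difference between the lines was larger than both within-line differences, were *EGR1*, *FOSL2* and *IER3*.

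**Figure D3:**
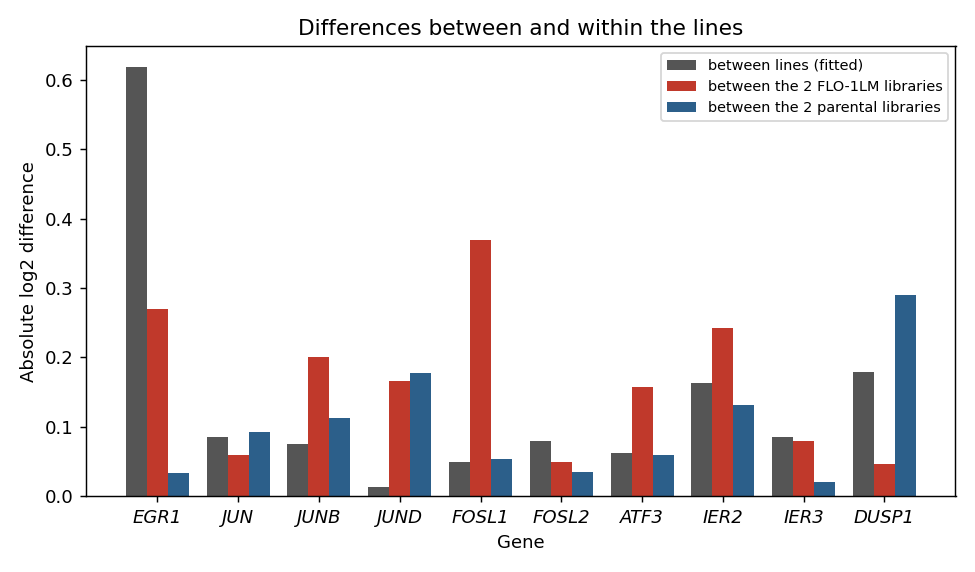
Absolute log2 difference for each gene between the lines (grey, fitted), between the 2 FLO-1LM libraries (red) and between the 2 FLO-1 parental libraries (blue). For *EGR1* the grey bar of 0.62 exceeds both within-line bars of 0.27 and 0.03, whereas for *FOSL1* and *DUSP1* a within-line bar is the tallest.

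Levels were compared between genes as CPM per kilobase of exon. *IER3* was highest, at 105.1 in FLO-1LM and 99.0 in parental cells, followed by *JUNB* at 74.4 and 70.6, *FOSL1* at 51.8 and 53.6, *IER2* at 40.3 and 45.1, *JUND* at 35.6 and 35.2 and *JUN* at 28.7 and 27.0. *ATF3* at 18.0 and 17.2, *FOSL2* at 13.3 and 14.1, *DUSP1* at 12.2 and 13.8 and *EGR1* at 5.33 and 8.16 CPM per kilobase came last. Over the 4 libraries the ranges of *FOSL1* and *IER2*, of *IER2* and *JUND*, and of *FOSL2* and *DUSP1* overlapped, so the levels of these neighbours were not apart beyond their spread between libraries. Within each of the 4 libraries *FOSL1* was nonetheless above *IER2* and *IER2* above *JUND*, whereas *FOSL2* was above *DUSP1* in 3 of 4. The place of *ATF3* and *IER2* depended on the length used. Per kilobase of the canonical transcript, *ATF3* was at 37.1 and 35.5 and *IER2* at 58.8 and 65.8 CPM.

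Within the 6 AP-1 genes, *JUNB* gave the largest share of the summed CPM per kilobase, 33.5% ± 0.72 in FLO-1LM and 32.4% ± 0.67 in parental cells (SD, n = 2 each). *FOSL1* gave 23.3% ± 2.4 and 24.6% ± 1.5, *JUND* 16.0% ± 0.08 and 16.2% ± 0.85, and *JUN* 13.0% ± 1.4 and 12.4% ± 0.13. *ATF3* gave 8.17% ± 1.3 and 7.92% ± 0.05, and *FOSL2* 6.02% ± 0.61 and 6.46% ± 0.12. For each gene but *JUNB* the lines differed by less than the larger of the SDs. For *JUNB* they differed by more than either SD, and replicate 2 of FLO-1LM, at 33.0%, stood beside parental replicate 2 at 32.9%. In both lines *FOSL1* thus made up most of the FOS-family mRNA per length, with 74.6% ± 3.4 and 74.1% ± 0.40, while *FOS* itself, named here after its values were seen, made up 5.48% ± 0.36 and 5.97% ± 0.21. By canonical transcript length the share of *ATF3* among the AP-1 genes was 14.9% ± 2.1 in FLO-1LM and 14.5% ± 0.06 in parental cells. *JUND* gave 14.2% ± 0.23 and 14.3% ± 0.78, and *JUN* 12.8% ± 1.2 and 12.2% ± 0.15. *ATF3* thus differed from *JUND* by less than the larger SD in both lines. From *JUN* it differed by more than the larger SD in parental cells only. By the same length *JUNB* gave 29.7% ± 0.97 and 28.7% ± 0.65, and its lines no longer differed by more than the larger SD.

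**Figure D4:**
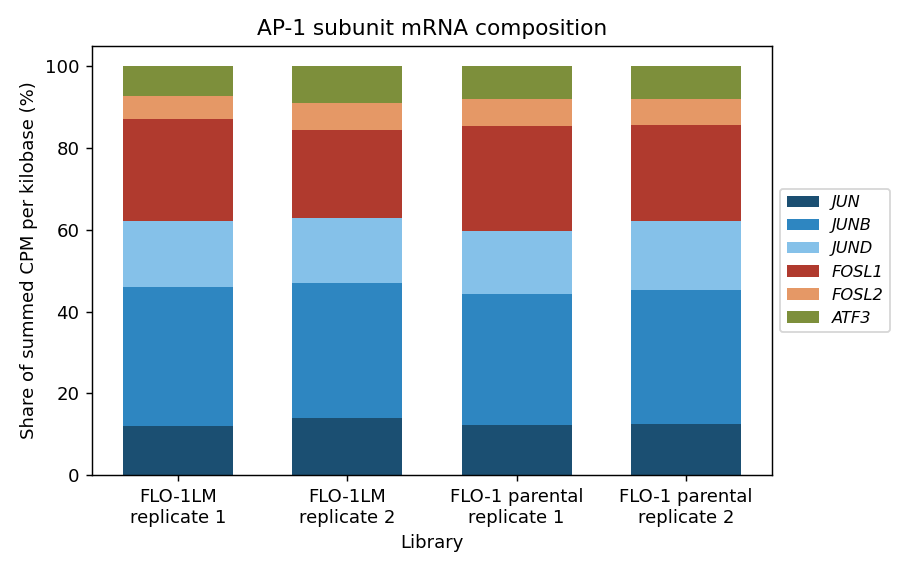
Share of each of the 6 AP-1 genes in their summed CPM per kilobase of exon (vertical axis, percent) in each library. The bars of the 4 libraries are alike, with *JUNB* near 33.5% in FLO-1LM and 32.4% in parental cells as line means.

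Genes on the strand opposite a member were read with caution, because the library kit keeps strand but the strand setting of the counting is not stated. ENSG00000267598, a long noncoding RNA gene on chromosome 19 of GRCh37 (13263885 to 13265007), overlaps 946 bases of *IER2* exons. It had 6 and 10 counts in FLO-1LM and 36 and 75 counts in parental cells, and it fell by 3.04 on the log2 scale (standard error 0.59, adjusted p = 0.0081 from edgeR). These counts were 0.20% and 0.342% of the counts of *IER2* in FLO-1LM and 1.23% and 2.69% in parental cells, and *IER2* itself did not follow this pattern. IER3-AS1, which overlaps *IER3*, had 6 and 26 counts in FLO-1LM and 19 and 30 in parental cells (adjusted p = 0.67 from edgeR). HCG20, opposite *IER3*, had at most 10 counts in any library and was not tested. *HOOK2*, whose annotated exons overlap *JUNB* by 259 bases, had a log2 fold change of -0.01 (adjusted p = 0.99 from edgeR).

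The pathway around these genes was described from lists chosen by function. In all, 121 of 132 listed genes outside the 10 could be tested, and 4 fell and 2 rose, beside 1.83% and 0.402% of all genes. With library totals in place of TMM factors 7 fell and 0 rose. Over all tested genes 12.4% had an unadjusted p under 0.05 and 49.6% a negative log2 fold change. Of 40 other immediate early genes, 39 were tested, of which 4 fell and 1 rose, and their median log2 fold change was 0.01. The values ran from -0.61 to 2.14, and 12 genes had an unadjusted p under 0.05, beside 12.4% of all tested genes. *KLF2*, a Krüppel-like transcription factor known from endothelium, fell from 48.3 and 55.0 CPM in parental cells to 33.4 and 34.4 CPM in FLO-1LM, at -0.61 on the log2 scale (standard error 0.10, adjusted p = 0.0025 from edgeR). *KLF4*, a Krüppel-like factor of epithelial differentiation, fell from 51.4 and 49.2 to 37.3 and 32.2 CPM, at -0.54 (standard error 0.11, adjusted p = 0.0085 from edgeR). For both genes, and for *IER5*, *ID1* and *CCN1* described next, the libraries of the lines did not overlap. Over all tested genes 21.7% lay lower and 20.9% higher in FLO-1LM without overlap, so nothing is read from this.

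*IER5*, an early response gene related to *IER2*, fell from 153.1 and 162.9 CPM in parental cells to 122.7 and 117.5 CPM in FLO-1LM, at -0.40 on the log2 scale (standard error 0.08, adjusted p = 0.0086 from edgeR). *ID1*, an inhibitor of basic helix-loop-helix factors and a target of BMP signals, fell from 94.4 and 98.0 to 79.6 and 61.5 CPM, at -0.45 (standard error 0.10, adjusted p = 0.025 from edgeR). *CCN1*, a secreted matrix protein and target of YAP and SRF, rose from 104.2 and 102.0 to 121.6 and 137.5 CPM, at 0.33 (standard error 0.08, adjusted p = 0.043 from edgeR). *CCN1* had an adjusted p of 0.074 with library totals in place of TMM factors. Without parental replicate 2 none of the 5 genes passed the threshold, without parental replicate 1 only *KLF2* did, and without FLO-1LM replicate 2 *ID1* (-0.27) and *CCN1* (0.24) did not. Without parental replicate 2 the log2 fold changes were -0.51 for *KLF2*, -0.57 for *KLF4*, -0.35 for *IER5*, -0.42 for *ID1* and 0.32 for *CCN1*. Without parental replicate 1 they were -0.70, -0.50, -0.44, -0.48 and 0.35.

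None of the 12 tested genes in the list of other AP-1 and small bZIP subunits passed the threshold. Their median was -0.07, and the smallest p-values belonged to *MAFG*, a small MAF protein (log2 fold change -0.22, adjusted p = 0.29 from edgeR), and *JDP2*, a JUN dimerization partner (-0.30, adjusted p = 0.49 from edgeR). *FOS* had 12.6 and 11.4 CPM in FLO-1LM and 14.3 and 13.2 in parental cells (log2 fold change -0.20, adjusted p = 0.72 from edgeR). At an unadjusted p under 0.05 the list held 1 gene, beside 12.4% of all tested genes. The EGR cofactors *NAB1* and *NAB2* were at 0.04 and -0.09 (adjusted p = 0.92 and 0.79 from edgeR), with mean levels of 93.6 and 73.1 CPM in FLO-1LM and 91.4 and 77.8 CPM in parental cells.

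Upstream, 29 genes of the MAP kinase cascade, from the RAS proteins to the ERK, JNK and p38 kinases and the RSK and MSK kinases they activate, were tested. None passed the threshold, and 0 had an unadjusted p under 0.05 beside 12.4% of all tested genes. Their median was -0.05, and 26 lay within 0.2 of 0 on the log2 scale, beside 10909 of all 17143 tested genes. The smallest p-values were those of *MAP2K7*, a kinase that activates JNK (-0.18, adjusted p = 0.49 from edgeR), and *RPS6KA1*, which encodes RSK1 (-0.16, adjusted p = 0.52 from edgeR). The 11 genes of SRF, the ternary complex factors and CREB also had none past it, 1 at an unadjusted p under 0.05 beside 12.4% of all tested genes, and a median of -0.03. Among these, *EP300*, an acetyltransferase coactivator, was at -0.21 (adjusted p = 0.28 from edgeR) and *MRTFB*, an actin-regulated SRF cofactor, at -0.19 (adjusted p = 0.55 from edgeR).

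Among 15 MAP kinase phosphatases and ERK feedback inhibitors tested besides *DUSP1*, none passed the threshold, and 2 had an unadjusted p under 0.05, a share near the 12.4% of all tested genes. These were *DUSP2*, a nuclear MAP kinase phosphatase, with 2.24 and 1.67 CPM in FLO-1LM and 4.22 and 4.80 CPM in parental cells (-1.21, standard error 0.32, adjusted p = 0.055 from edgeR), and *SPRY1*, a Sprouty inhibitor of RAS-ERK signaling, with 2.60 and 1.67 against 0.681 and 1.10 CPM (1.27, standard error 0.50, adjusted p = 0.27 from edgeR). Both rest on fewer than 100 counts in every library. *DUSP14* had no matching gene identifier and was not analysed here.

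Of 12 genes known as AP-1 targets, 8 could be tested and none passed the threshold. Their median log2 fold change was -0.21, 7 of the 8 values were negative, and 3 had an unadjusted p under 0.05, beside 49.6% and 12.4% of all tested genes. *PLAU*, the urokinase gene, had 641.1 and 591.0 CPM in FLO-1LM and 735.5 and 722.4 CPM in parental cells (-0.24, standard error 0.07, adjusted p = 0.085 from edgeR). Heat shock genes, listed as a possible sign of stress during handling, had positive log2 fold changes in all 8 genes tested, from 0.02 to 0.27. Their median was 0.08 and 7 of the 8 lay within 0.2 of 0, beside 10909 of all 17143 tested genes. With library totals the median over all tested genes was -0.03, beside 0.0020 with TMM factors, so the signs of the smallest values may depend on the scaling. In this list 1 gene rose, *HSP90AA1* (0.27, standard error 0.06, adjusted p = 0.030 from edgeR). *HSP90AA1* did not pass the threshold with library totals in place of TMM factors (adjusted p = 0.055 from edgeR), with at least 10 counts required in every library (0.057), without parental replicate 1 (0.16) or without parental replicate 2 (0.26), and over its 12 alternatives the adjusted p ran from 7.68e-04 to 0.26. The summed level of the 8 genes was 4120 to 4157 CPM in FLO-1LM and 3656 to 3684 CPM in parental cells. Of this, *HSP90AA1* held 1765 CPM in FLO-1LM and 1466 CPM in parental cells as line means. The part of handling in the values of the early genes was not tested.

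**Figure D5:**
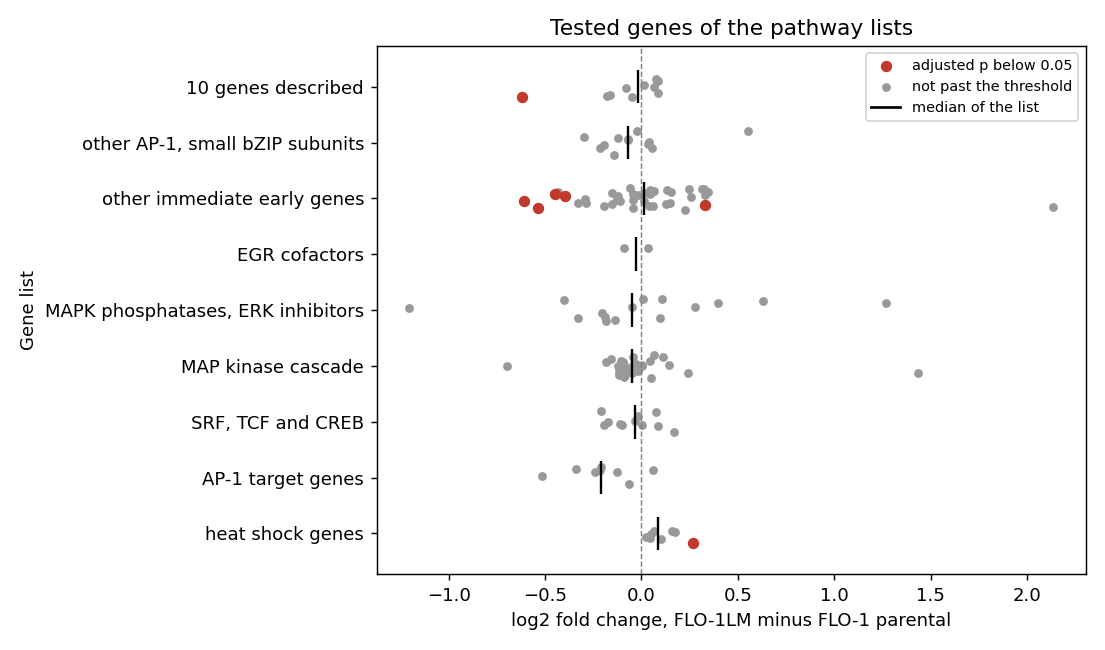
Log2 fold change (FLO-1LM minus FLO-1 parental, horizontal axis) of every tested gene in the 10 genes described and in the 8 pathway lists, with red points for genes past an adjusted p of 0.05, grey points for the rest and a black bar for the median of the list. Red points are *EGR1* among the 10 genes, *KLF2*, *KLF4*, *IER5*, *ID1* and *CCN1* among other immediate early genes, and *HSP90AA1* among heat shock genes.

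Over the 4 libraries, the genes outside the lists with a mean of at least 10 CPM whose log2 CPM followed that of *EGR1* most closely were *MEF2D*, *MATCAP1* and *MROH6*, with a Pearson r of 1.00, 1.00 and 0.999. *MEF2D*, a MADS-box transcription factor related to SRF, had 49.9 and 45.9 CPM in FLO-1LM and 57.9 and 57.5 CPM in parental cells. None of the 3 passed the threshold. They were picked as the highest of 10227 genes over only 4 libraries, so nothing is read from their r. At the lower limit of 0.95, 399 of these genes (3.9%) had an r above it.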

How the data were processed

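The authors made strand-specific libraries from total RNA and sequenced them on an Illumina NextSeq. Their processing notes name bcl2fastq 2.17 and Trimmomatic 0.30, and reads were mapped to GRCh37. The authors deposited raw read counts for Ensembl genes, with no normalization. The aligner, the program that counted and whether it used strand are not given in the sources used here.

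Counts of 63677 genes in 4 libraries were analysed in R 4.3.3. Genes were kept with filterByExpr of edgeR 4.0.16 (minimum count 10), TMM factors scaled the library sizes, and FLO-1LM was compared with FLO-1 parental by estimateDisp, glmQLFit and glmQLFTest over 17143 genes. A gene was called at a Benjamini-Hochberg adjusted p below 0.05. A standard error is the size of the log2 fold change over the root of its F statistic, and 95% intervals use the degrees of freedom of the same fit. The common biological coefficient of variation was 0.0899. An exact permutation test of 2 libraries against 2 cannot give a p below 0.333, so calls lean on the spread shared across genes. Symbols, positions and exon lengths come from GENCODE mapped to GRCh37, which matched 55665 identifiers. These exon lengths need not be those of the gene models that the authors counted over, and levels and shares per kilobase carry that limit. Promoter windows are from RefSeq on GRCh38.p14, and no coordinate was carried between builds. Python 3.11.15 was used for summaries. The scripts were tested on simulated data.

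The members and lists were chosen with earlier results of these data known. Besides the members, the text names each list gene past the threshold or, in a list with none, the 2 with the smallest p, genes opposite a member's exons, and the 3 genes nearest *EGR1* over the libraries. A gene that the rule names among the AP-1 targets is not reported here. Alternatives were RLE factors, library totals only, DESeq2 1.42.0, limma voom (limma 3.58.1) with and without TMM factors, other low-count filters, the mitochondrial genes left out and each library left out in turn. The canonical transcript length was added after seeing the data.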

Additional observations from a re-analysis of the deposited data

How the results depend on the processing

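*EGR1* kept its direction in all 12 alternatives and passed the threshold in 10, with log2 fold changes from -0.66 to -0.62 in the 8 that kept all libraries. With a library left out it ranged from -0.76 to -0.49, and the count of members past the threshold from 0 to 2. No other member passed the threshold in any of the 8 alternatives that kept all libraries. *JUND* changed sign with library totals only (-0.018) and with limma voom without TMM factors (-0.017). With a library left out, log2 fold changes ranged from -0.028 to 0.173 for *JUNB*, from -0.074 to 0.104 for *JUND*, from -0.246 to 0.124 for *FOSL1* and from -0.018 to 0.139 for *ATF3*, and each of these changed sign at least once. The signs of *JUN* (0.039 to 0.132), *FOSL2* (-0.103 to -0.055), *IER2* (-0.289 to -0.046), *IER3* (0.045 to 0.126) and *DUSP1* (-0.318 to -0.028) were kept.

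The cause of these changes of sign was not tested. Keeping every gene with a count gave 577 genes past the threshold in place of 382, and 10 in place of 6 among the list genes. Requiring 10 counts in every library gave 269. With a library left out, the count of genes ran from 116 to 1052 and that of list genes from 0 to 14, lower without either parental library and higher without either FLO-1LM library, and in these fits the lone library is assumed to vary like the other line's pair. Total counts limit the least abundant genes most, and the intervals of genes under 100 counts are wide. No paired analysis was possible because the labels carry no replicate numbers, and 1 and 2 name the libraries of a line in the order of the sample records without tying a library of FLO-1LM to a parental library.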
